A study of Mus musculus with 24 samples.

Results

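The 9 genes described here are classical markers of the main glial cells of the brain: 5 astrocyte genes (Gfap, Aqp4, Slc1a2, Slc1a3 and S100b) and 4 myelin genes (Mbp, Mobp, Mog and Mag). They were chosen by name and found on the arrays through the transcript accession of each probe, which gave 18 probes for 9 of the 21368 genes named on the array. Gene expression was measured on 1-colour Agilent arrays in 4 tissues (brain, liver, heart and skeletal muscle) taken from 6 females. In 3 mice, called A, B and C, the endogenous Rap1 gene (symbol Terf2ip) carried the CRISPR/Cas9 knockin mutation I312R, labelled RAP1 MUT and written KI here. The other 3 mice, called D, E and F, were wild type (WT). C and F were 14 months old and A, B, D and E 15 months, so that each tissue had 3 KI and 3 WT arrays and every mouse gave all 4 tissues. The knockin line had been back-crossed to C57BL6 mice (the C57BL/6N substrain by the methods of the study), was not restricted to any cell type, and the labels state neither the number of founders nor the zygosity. The study describes the knockin mice of its tissue arrays as homozygous and the controls as wild-type littermates. RAP1 is a shelterin protein of telomeres, and I312R prevents its binding to TRF2. The comparisons asked whether glial transcripts differed between the genotypes, how they varied between brains, and in which other tissues they were measured.

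Astrocytes support neurons and synapses, take up glutamate and potassium, and seal the blood vessels of the brain with their endfeet. GFAP is the intermediate filament of their cytoskeleton and rises in reactive astrocytes, AQP4 is the water channel of the endfeet, SLC1A2 (GLT-1) and SLC1A3 (GLAST) clear glutamate from the synapse, and S100B is a calcium-binding protein. Oligodendrocytes wrap axons in myelin, in which MBP and MOBP hold the compacted membranes together, MOG lies on the outermost surface and MAG faces the axon.

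A level is given throughout on the log2 scale, as the processed signal relative to the 75th percentile of its own array, so that 0 stands for the signal at that percentile. Levels of a probe can be set against each other between samples, but not between probes. A probe was called measured on an array where the scanner software called it well above background. Where a gene had several probes, the one with the highest mean over the 24 arrays is the first probe and stood for the gene. Most of these arrays were not of brain, so the rule can favour a probe with signal in other tissues. In brain alone, the second probes of Gfap, Aqp4, Mbp and Mobp had higher means than the first (for Mobp 4.50 against 2.21). Differences are log2 differences, and a difference in these bulk tissues cannot tell fewer cells of a type from less RNA per cell.

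The sequences before the annotated starts of 4 of the genes are shown because these transcripts had their highest levels in the same 2 brains, as described below. Each run holds the 250 bases upstream of the start in RefSeq's annotation of GRCm38.p6, written 5′ to 3′ on the strand of the gene. Capitals mark matches on either strand to ACAAAG, the core bound by SOX proteins such as SOX10, to CTGGNAC, the motif of the myelin regulatory factor MYRF, and to TTCNNNGAA, the motif bound by STAT proteins. No match overlapped another. Gfap lies on the minus strand of chromosome 11 (102887336 to 102897200) and its window at chr11:102897201-102897450, Mobp on the plus strand of chromosome 9 (120149742 to 120181488) with chr9:120149492-120149741, Mog on the minus strand of chromosome 17 (37010740 to 37023398) with chr17:37023399-37023648, and Mag on the minus strand of chromosome 7 (30899175 to 30914922) with chr7:30914923-30915172.
Gfap: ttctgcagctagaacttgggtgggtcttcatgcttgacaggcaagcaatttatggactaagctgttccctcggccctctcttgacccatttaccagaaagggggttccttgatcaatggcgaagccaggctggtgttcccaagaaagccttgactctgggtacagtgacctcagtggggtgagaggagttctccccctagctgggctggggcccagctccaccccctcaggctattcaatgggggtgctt
Mobp: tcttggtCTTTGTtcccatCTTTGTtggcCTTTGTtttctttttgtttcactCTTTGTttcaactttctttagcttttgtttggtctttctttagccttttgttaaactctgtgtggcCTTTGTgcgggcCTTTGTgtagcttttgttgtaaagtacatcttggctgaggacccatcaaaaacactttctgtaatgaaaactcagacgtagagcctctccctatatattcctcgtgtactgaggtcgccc
Mog: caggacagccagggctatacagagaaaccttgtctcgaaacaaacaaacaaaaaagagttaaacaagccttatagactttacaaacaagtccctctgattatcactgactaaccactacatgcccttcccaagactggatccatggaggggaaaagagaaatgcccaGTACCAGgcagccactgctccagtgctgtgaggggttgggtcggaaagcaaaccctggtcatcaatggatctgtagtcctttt
Mag: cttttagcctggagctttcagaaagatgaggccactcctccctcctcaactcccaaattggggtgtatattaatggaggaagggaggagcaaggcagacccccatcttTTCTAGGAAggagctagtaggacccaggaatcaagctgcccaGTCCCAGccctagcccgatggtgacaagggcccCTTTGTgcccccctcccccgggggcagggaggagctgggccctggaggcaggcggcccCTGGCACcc

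The Mobp window held ACAAAG 6 times, each time as its reverse complement CTTTGT, at 243, 231, 221, 198, 132 and 120 bases before the start. Of 32851 windows of this length in the table, 16.5% held the motif at least 1 time and 1 held it 6 times or more. RefSeq lists 3 starts for Mag. The printed Mag window held ACAAAG 1 time and CTGGNAC 2 times, the Mog window CTGGNAC 1 time, and 16.1% of all windows held CTGGNAC. Of the windows at the other Mag starts, 1 held none of the motifs. TTCNNNGAA was in 7.02% of all windows, in those of Mag and Slc1a3, and not in that of Gfap. The windows of Slc1a2 and S100b held none of these letters. That of Slc1a2 lay inside the gene, at 102706188 to 102706437 on chromosome 2, where the plus-strand gene begins at 102658239. The sequence before that first position of Slc1a2 was not analysed. These matches describe the letters of the windows, and no binding was measured. Promoters of Aqp4 and Mbp were not analysed here.

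The 4 tissues carried the transcripts of their own cells, and 3 arrays also carried those of another tissue. Hepatocyte genes (10 genes, among them Alb and Apoa1) averaged 8.01 to 8.90 in liver, skeletal muscle genes 8.04 to 8.51 in muscle and heart muscle genes 5.76 to 7.77 in heart. Neuron genes averaged 4.46 to 4.76 in the 6 brains. The brain of KI mouse C stood apart. Its 10 hepatocyte genes averaged 4.12 against -3.11 to -1.34 in the other brains. The lowest of these means, that of D, lacked Fgb, whose value was missing there. The 12 cerebellum genes averaged -0.51 in C against at least 1.21 in each other brain. The liver of C carried skeletal muscle genes (0.92 against -5.36 to -4.60 in the other livers), and the muscle of KI mouse B carried mammary epithelium genes (-1.47 against -4.96 to -4.64). The mutated gene Terf2ip differed by -0.13 (SE 0.18, adjusted p = 1.00, limma) between KI and WT brains, which checks no label because the mutation leaves the transcript in place.

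None of the 9 genes passed the test between KI and WT brains. In limma's test over 16073 genes, 0 members and 0 genes in all had an adjusted p under 0.05 (0% of the genes tested), and 127 genes, or 0.790%, but no member, had an unadjusted p under 0.05. The differences of the members, KI minus WT, lay between -0.10 and 0.45 with a median of 0.01, against a median of -0.03 over all genes. This median of the members depended on single brains. Without WT brain D it was -0.11, with 7 of 9 members below 0. Without KI brain C it was 0.23, with 8 of 9 members above 0, against -0.006 over all genes.

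By the first probes, Gfap had the widest spread of the 9 genes. Its level was 1.82, 3.17 and 1.49 in KI brains A, B and C and 1.88, 3.40 and 1.51 in WT brains D, E and F. Both genotypes thus held 1 brain, B and E, far above the other 2, and the groups overlapped almost completely. The highest brain exceeded the lowest by 3.76-fold, and 96.6% of the 15591 genes measured on all 6 brains had a narrower range. The difference between genotypes was -0.10 (SE 0.61, adjusted p = 1.00), with a 95% interval from 0.344-fold to 2.53-fold. With 3 arrays per genotype, a change within that interval could not be detected by this probe. The second Gfap probe, with a narrower range over the brains, differed by 0.03 (SE 0.28), with a 95% interval from 0.647-fold to 1.61-fold. Without the brain of C, which carried hepatocyte transcripts, the difference of the first probe was 0.23, and 0 members were called.

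Aqp4 was 2.45, 2.13 and 1.77 in the KI brains and 2.02, 2.26 and 2.004 in the WT brains. The WT values lay inside the range of the KI values, and the difference was 0.03 (SE 0.20, 95% interval 0.734-fold to 1.41-fold). S100b was 6.24, 5.74 and 5.52 in KI and 5.63, 5.71 and 5.68 in WT. The WT brains lay close together, with KI brain A above and C below them. Slc1a3 was 3.71, 3.35 and 3.28 in KI and 3.23, 3.56 and 3.56 in WT, with the same mean of 3.45 in both genotypes. Its 95% interval, 0.748-fold to 1.33-fold, was the narrowest of the 9 genes.

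Slc1a2 was the only member whose first probe separated the genotypes in brain. It was 3.33, 3.51 and 3.44 in KI and 3.17, 2.47 and 3.28 in WT. The 3 KI brains lay just above the 3 WT brains, and WT brain E was the low one. In all, 2.94% of the genes tested had groups that did not overlap in brain, and 1 of 9 members did. The difference was 0.45 (SE 0.23, unadjusted p = 0.0886 and adjusted p = 1.00 by limma), a fold of 1.37 with a 95% interval from 0.940 to 1.995. Without WT brain E it was 0.20 (unadjusted p = 0.169, limma). An exact permutation test of 3 against 3 arrays cannot go below p = 0.1. The second probe, to the transcript NM_001077514, differed by 0.34 with overlapping groups, and the third, to the same transcript, by -0.10.

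The first probes of the myelin genes did not separate the genotypes. Mbp was 2.87, 2.91 and 3.01 in KI and 2.99, 2.69 and 3.38 in WT, a difference of -0.09 (SE 0.19). The KI brains lay inside the range of the WT brains. Mag was 4.99, 5.14 and 4.40 in KI and 4.77, 5.04 and 4.68 in WT, and here the WT brains lay inside the range of the KI brains. Mog was 0.98, 1.27 and 0.55 in KI and 0.58, 1.63 and 0.75 in WT, and the highest brain exceeded the lowest by 2.12-fold. Mobp was 2.20, 2.72 and 1.76 in KI and 1.89, 2.66 and 2.01 in WT. The differences of Mag, Mog and Mobp were 0.01 (SE 0.22), -0.05 (SE 0.32) and 0.04 (SE 0.30). Their 95% intervals reached from 0.571-fold, for Mog, to 1.69-fold, for Mobp, so that changes of that size could not be detected.

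**Figure D1:**
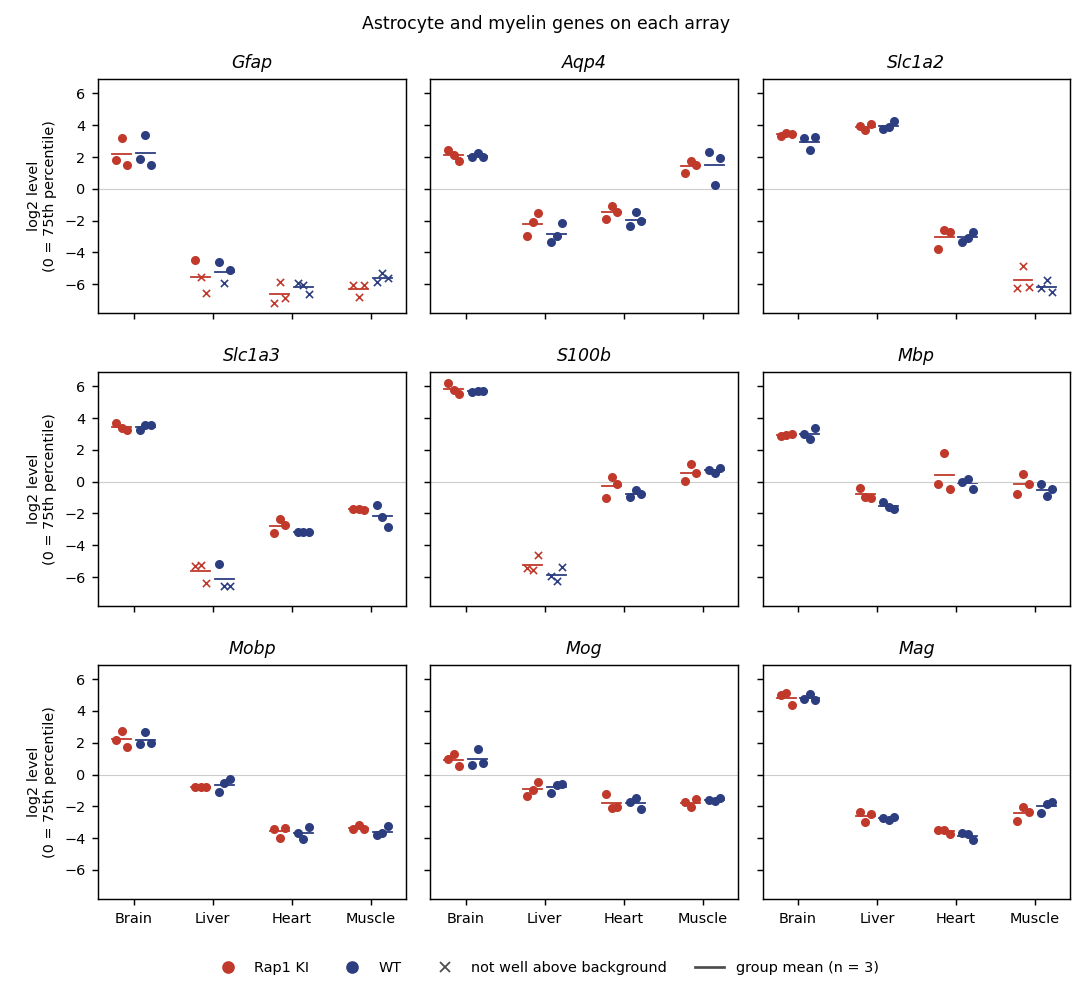
Level of the first probe of each gene (y axis, log2 of the signal over the array's 75th percentile) in brain, liver, heart and muscle (x axis). Each point is 1 array, with KI in red and WT in blue, crosses mark arrays where the probe was not well above background, and lines are means of 3 arrays. The genotypes overlap in brain for 8 of 9 genes, the brain points lie above the other tissues for most genes, and Slc1a2 in liver and Aqp4 in muscle are the exceptions.

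A second Mobp probe, to the transcript NM_008614, did separate the genotypes, unlike the first probe to NM_001039365. It read 5.16, 5.03 and 4.61 in KI brains and 3.94, 4.00 and 4.26 in WT brains. All 3 KI brains lay above all WT brains. The difference was 0.86 (SE 0.19, unadjusted p = 0.00251, adjusted p = 1.00 by limma), a fold of 1.82 with a 95% interval from 1.34 to 2.47. The KI brain exceeded the WT brain by 1.22 on slide 1, which held 1 array of each genotype, and by 0.69 on slide 2, which held 2 of each. Both signs follow from the separation of the groups and add no support to it. The third Mobp probe, again to NM_001039365, read -0.35, -0.26 and -0.82 in KI and -1.05, -0.64 and -0.74 in WT, a difference of 0.33 (SE 0.20) with overlapping groups. The probe was singled out after its values were seen, among 18 member probes, and no probe of a member passed the adjusted threshold in brain.

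Within slides the genotype differences were as follows. Slide 1 held brains A and D and slide 2 the other 4. Gfap differed by -0.06 on slide 1 and by -0.12 on slide 2. Slc1a2 differed by 0.16 and 0.60 and Mbp by -0.12 and -0.08 in the same order. As the groups of Slc1a2 did not overlap, its 2 signs were fixed in advance. The other 6 members were above 0 on slide 1 and below 0 on slide 2. These were Aqp4 (0.44 and -0.18), Slc1a3 (0.48 and -0.25), S100b (0.60 and -0.07), Mog (0.40 and -0.28), Mag (0.23 and -0.09) and Mobp (0.30 and -0.096). With the slide as a block, limma again called 0 of 9 members.

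**Figure D2:**
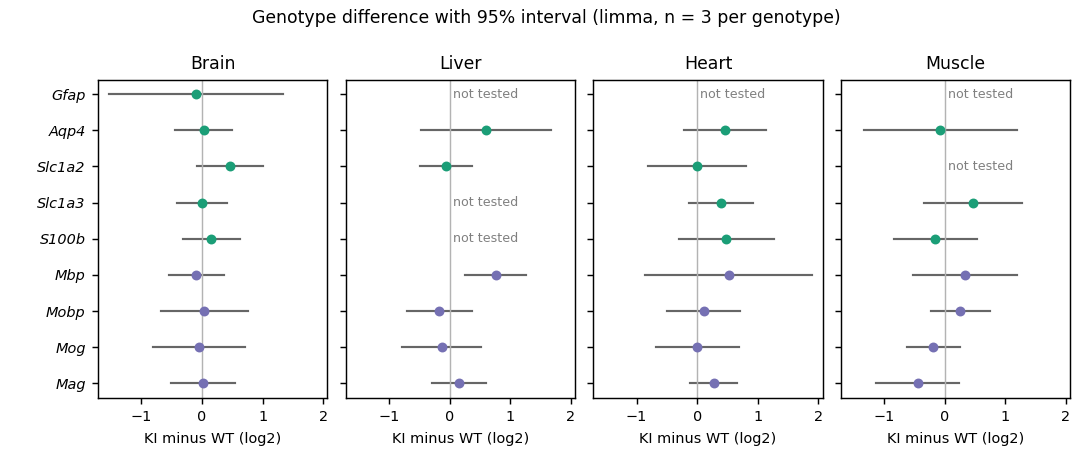
KI minus WT difference of each gene (x axis, log2) with its 95% interval from limma (horizontal bars, 3 arrays per genotype) in the 4 tissues, astrocyte genes in green and myelin genes in purple. Intervals include 0 for all tested genes but Mbp in liver, whose adjusted p was 0.378, and genes not measured on all 3 arrays of a genotype are marked as not tested.

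Between individual brains, Gfap, Mog, Mag and Mobp shared their highest arrays. Brains B and E, 1 KI and 1 WT, were the 2 highest for these 4 members, and remained so with quantile normalization and with the normexp background. Among all 15591 genes measured on the 6 brains, 17.3% had B and E as the 2 highest, so the count of 4 of 9 members is read against that share. Brain C was the lowest for 6 of 9 members, for 3 of 9 with quantile normalization and for 4 of 9 with the normexp background, and for 31.3% of all genes. Mbp went the other way: it was highest in F at 3.38 and lowest in E at 2.69.

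Pearson's r was computed for the 36 pairs of members over the 6 brains, with exact two-sided permutation p-values. The highest was that of Mog and Mobp, with r = 0.95 (p = 0.00556, adjusted p = 0.138) and Spearman's rho = 0.94 (p = 0.0167, adjusted p = 0.200). Without the 2 brains farthest from the median of Mog it was 0.97. Gfap and Mobp had r = 0.94 (p = 0.0208, adjusted p = 0.142) and rho = 0.77 (p = 0.103), but 0.43 without the 2 brains farthest from the median of Gfap, so that this relation rested on brains B and E. Gfap and Mog had r = 0.92 (p = 0.0125, adjusted p = 0.138) and rho = 0.83 (p = 0.0583), and 0.29 without the same brains. Mag and Mobp had r = 0.90 (p = 0.0153, adjusted p = 0.138) and rho = 0.94 (p = 0.0167), and 0.83 without the 2 brains farthest from the median of Mag.

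Pairs within a cell type and pairs between the types spanned similar ranges. The 10 astrocyte pairs had r between -0.52 and 0.88 with a median of 0.07, the 6 myelin pairs between -0.66 and 0.95 with a median of 0.12, and the 20 pairs between the types between -0.70 and 0.94 with a median of 0.37. Whether these medians differ was not tested. In the myelin group the 3 pairs with Mbp were negative and the 3 pairs among Mog, Mag and Mobp positive. In the astrocyte group, Aqp4 and S100b had r = 0.88 (p = 0.0111, adjusted p = 0.138) and rho = 0.89 (p = 0.0333), and 0.61 without the 2 brains farthest from the median of Aqp4. None of the 36 pairs passed an adjusted p of 0.05, and 7 had an unadjusted p under 0.05.

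**Figure D3:**
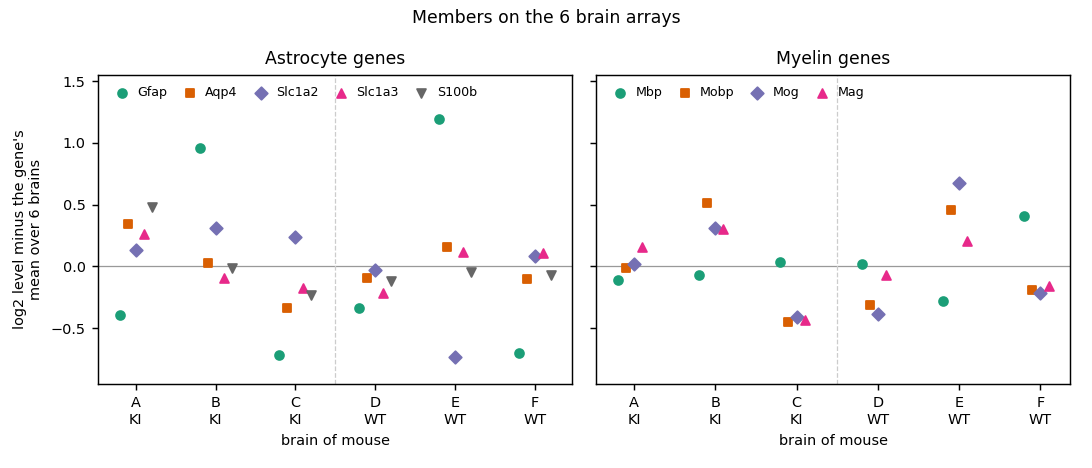
Level of each gene on each brain array (x axis, mouse and genotype) minus the gene's mean over the 6 brains (y axis, log2), astrocyte genes on the left and myelin genes on the right. Gfap stands high in B and E, Mobp, Mog and Mag are above their means in the same 2 brains and below them in C, D and F, and Mbp is highest in F.

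The probes of a gene did not always repeat its brain pattern. The other Gfap probes, both to NM_001131020, were also highest in E and second in B, at 3.69 and 3.39 for the second probe and -0.61 and -1.19 for the third. Their ranges over the 6 brains were 0.87 and 1.41 against 1.91 for the first probe. The second Mobp probe was highest in A and B and did not place E high. The second Mbp probe, to NM_010777, was highest in B at 3.64 and lowest in D at 2.99, where the first probe had E lowest.

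The regional and tissue lists also differed between these brains. The 11 hindbrain and spinal cord genes averaged -1.65 in E, -1.92 in A and -3.63 in B, against -6.87 to -4.49 in C, D and F. The 12 cerebellum genes averaged 1.21 in D, 1.53 in B, 1.56 in F, 1.995 in E and 2.0002 in A, and -0.51 in C. The 75th percentile of the signal was highest on the array of brain E, at 2510, and lowest on that of C, at 1397. The part of region and signal in the member values was not tested.

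The other astrocyte genes varied less between brains than the first Gfap probe. The list held 20 genes, all tested, and averaged 4.25 to 4.39 over the 6 brains. None of the 20 had an adjusted or an unadjusted p under 0.05 between genotypes, and their median difference was 0.05. The smallest p-values in each direction belonged to Aldh1l1, a folate enzyme that labels astrocytes (0.31, SE 0.19, unadjusted p = 0.151), and to Slc6a11, a GABA transporter (-0.10, SE 0.21).

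Genes of reactive astrocytes were set apart in brain C. Of 25 genes, 20 were tested and 0 called, 1 had an unadjusted p under 0.05, and the median difference was 0.09. That gene was Ptgs2, the inducible cyclooxygenase, at -2.11, -1.73 and -1.81 in KI and -1.55, -1.50 and -1.43 in WT (-0.39, SE 0.15, adjusted p = 1.00). In the other direction the smallest p was that of Cd109, a membrane protein (0.46, SE 0.22, unadjusted p = 0.0766 by limma). Of the 20 genes tested, 14 had a difference above 0. So had 16 of the 20 other astrocyte genes, 17 of the 25 other myelin genes and 3 of the 12 neuron genes, so this count does not set the reactive list apart. The list averaged -1.35 in C and -2.46 to -1.86 in the others. The lowest mean, that of D, lacked Vim, whose value was missing there and lay between 2.58 and 3.16 in the other brains. C was the highest brain for 13 of the 25 genes. It was also the highest for 10 of the 19 that were well above background on all 6 brains, against 16.1% of all genes measured on the 6 brains. The complement gene C3 was at 5.42 in C and at -0.90 to -0.06 in the others, beside the 10 hepatocyte genes, all of which were highest in C. Brain C also had the highest mean of the mammary epithelium genes (-3.35 against -5.25 to -4.76) and of the olfactory genes (0.97 against -3.46 to -0.36). In the mammary list, Krt5, Krt8, Krt14, Krt18, Epcam and Wfdc18 were highest in C. Csn1s1, Csn2, Csn3 and Wap were well above background on no brain, and Lalba was lowest in C, at -0.71. The part of the hepatocyte, epithelial and olfactory transcripts in the reactive list was not tested. Gfap was 1.49 in this brain and 1.51 in F, the other low one.

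Of 25 other myelin genes, 16 were lowest in brain C, as were 31.3% of all genes, and the list averaged 1.96 there and 2.05 to 2.32 in the others. All 25 were tested and 0 called. Trf, the iron carrier transferrin, had the smallest p and was 6.65, 6.44 and 6.80 in KI and 6.33, 6.16 and 6.32 in WT (0.36, SE 0.14, unadjusted p = 0.0394, adjusted p = 1.00). Its 3 KI brains lay above its WT brains, and the highest was C, which also carried hepatocyte transcripts. Nfasc, an adhesion molecule of the node, differed by -0.21 (SE 0.22). Of these 25 genes 3, or 12%, had B and E as the highest brains, against 17.3% of all genes: the transcription factor Sox10 was 3.14 in B and 3.03 in E against 2.22 to 2.65 in the others, Cnp, an enzyme of myelin, 4.98 and 4.82 against 4.08 to 4.52, and the membrane protein Pllp 2.37 and 2.20 against 1.37 to 1.80.

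Ermn, a cytoskeletal protein of oligodendrocytes, was lowest in E, as Mbp was. It was 2.44 in E and highest in D, at 4.76. The gene was singled out after its values were seen.

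Of 8 genes of oligodendrocyte precursors, 0 were called and 1 had an unadjusted p under 0.05, the sialidase Neu4 (-0.43, SE 0.14, adjusted p = 1.00), whose 3 KI brains lay below the WT brains. Cspg4, the proteoglycan NG2 of precursors, differed by 0.09 (SE 0.23). Among 15 genes of peripheral nerve, 13 were tested and 0 called. Pmp2, a fatty acid binding protein of peripheral myelin, was below background on all 6 brains. Gjb1, the connexin 32 shared by both kinds of myelin, had its 3 KI brains above the WT brains (0.34, SE 0.17, unadjusted p = 0.0843), and Drp2 differed by -0.08 (SE 0.12). Of the 10 microglia and 12 neuron genes, all tested, none had an unadjusted p under 0.05. Aif1 and Tmem119 differed by 0.12 and -0.10, and Gad1 and Slc17a7 by 0.16 and -0.20. Sox10 was in both the myelin and the peripheral nerve list.

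**Figure D4:**
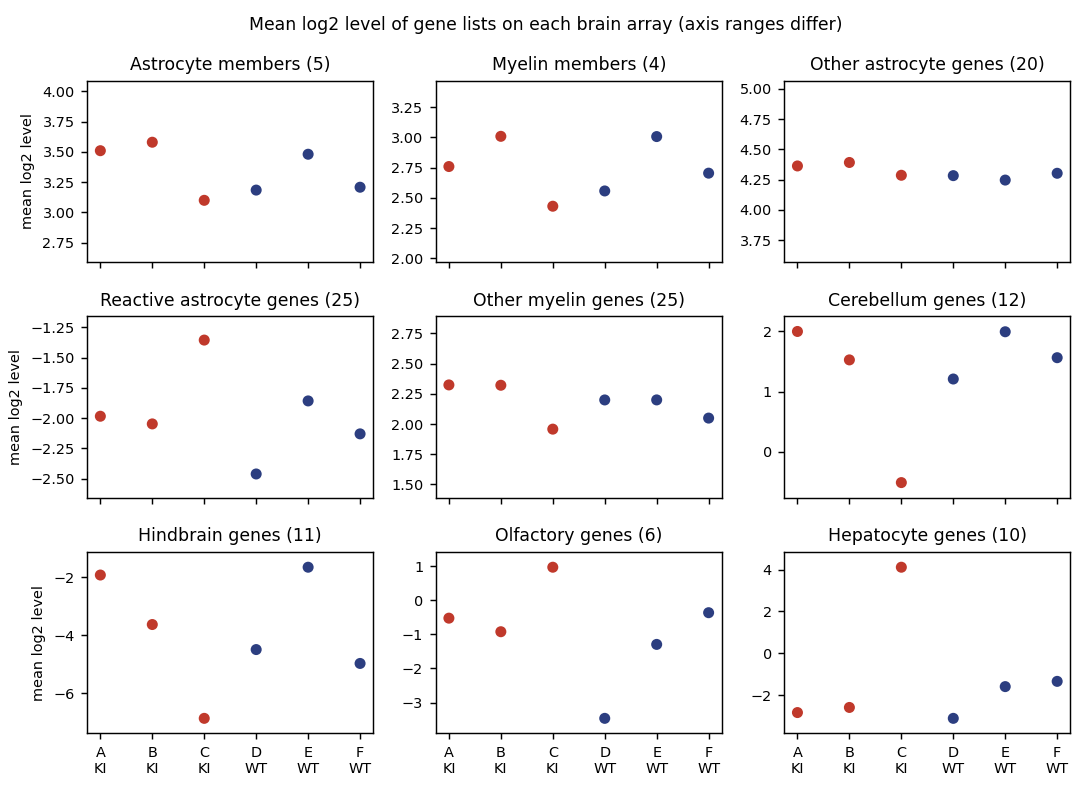
Mean log2 level of each gene list (y axis, ranges differ between panels, number of genes in brackets) on each brain array (x axis, KI in red and WT in blue). The means of the astrocyte and of the myelin members are highest in A, B and E, although Mbp and Slc1a2 were lowest in E. The other astrocyte genes are nearly level. The means of D lack Vim in the reactive astrocyte list and Fgb in the hepatocyte list, whose values were missing. Brain C is set apart by low cerebellum and hindbrain genes and high olfactory, hepatocyte and reactive astrocyte genes.

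By their pattern over the 6 brains, the genes most like the mean of the 5 astrocyte members were Tunar (r = 0.99), Bcl6b (r = 0.97) and Lpo (r = 0.97), among 2390 other genes measured on all brains with a range of at least 1. Those most like the mean of the 4 myelin members were Ier2, Hr and Kcnk12, each with r = 0.99. Hr, a corepressor of the thyroid hormone receptor, was 2.32 in B and 2.41 in E against 1.11 to 1.84 in the other brains. Over all 24 arrays, where the tissue sets the pattern, the most alike of 15504 genes were Acsbg1 (r = 0.997), Mapk8ip2 (r = 0.995) and Scg5 (r = 0.993) for the astrocyte mean, and Rell2, Tmem178 and Camk2n2 (each r = 0.99) for the myelin mean. Acsbg1, an acyl-CoA synthetase, was in the astrocyte list. The points share arrays, mice and slides, and each gene was picked as the highest of many.

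Between tissues, the members marked the brain. In limma's fit of all 24 arrays over 17177 genes, 9 of 9 members were higher in brain than in heart, 8 of 9 higher than in liver and 8 of 9 higher than in muscle. Gfap entered this fit only through its brain arrays, so its part in these counts is no independent result. Of all genes tested, 35.2% were higher in brain than in heart, 38.5% higher than in liver and 35.5% higher than in muscle. RNA of brain and liver was extracted with a different kit from that of heart and muscle, so that kit and tissue cannot be told apart for the last 2. Brains of both genotypes were averaged, and each tissue's values are the lowest, the median and the highest of 6 arrays.

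The first Gfap probe was measured outside the brain in some livers only. In brain it spanned 1.49 to 3.40, and in heart it lay between -7.17 and -5.86 and in muscle between -6.81 and -5.30, with no array well above background in either. It was at least 196-fold higher in brain than in heart and at least 103-fold higher than in muscle. The probe entered limma's fit only through its brain arrays, so its calls there add nothing to these bounds. These bounds set the brain mean against the lowest signal that counted as well above background on each array of the dimmer tissue, or the probe's own signal where higher. Over the 6 livers, 3 of which measured it, it lay between -6.58 and -4.47, and neighbours in the order liver, muscle and heart overlapped. Of the other Gfap probes, the second was also measured on the heart of KI mouse B (-5.31) and the third on the muscle of the same mouse (-3.57).

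Aqp4 was high in muscle as well as in brain. Its muscle levels were 0.98, 1.76 and 1.53 in KI mice and 2.29, 0.27 and 1.94 in WT mice, against 1.77 to 2.45 in brain. The tissues overlapped, and the muscle values spread over 2.02 against 0.68 in brain. Brain exceeded muscle by 0.65 (SE 0.32, adjusted p = 0.0722, limma), a fold of 1.56, and the second Aqp4 probe gave 0.83 (SE 0.41, adjusted p = 0.0691). The difference passed the threshold with quantile normalization (0.90, adjusted p = 0.0135), with the normexp background (0.71, adjusted p = 0.0209), with the deposited scores (adjusted p = 0.0281), without WT mouse D (0.86, adjusted p = 0.0331) and without the 3 arrays that carried transcripts of another tissue (0.82, adjusted p = 0.0430), and the muscle of B was 1 of these 3. AQP4 is known from the membrane of fast skeletal muscle fibres. Heart lay lower, with a median of -1.68 (-2.34 to -1.08), and liver with a median of -2.55 (-3.34 to -1.52), and these neighbours overlapped. Brain exceeded heart by 14.0-fold and liver by 24.6-fold.

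Slc1a2 was higher in liver than in brain by its first probe. It was 3.95, 3.71 and 4.07 in KI livers and 3.75, 3.90 and 4.27 in WT livers, and no liver overlapped the brains, which spanned 2.47 to 3.51. Liver exceeded brain by 1.67-fold (brain minus liver -0.74, SE 0.25, adjusted p = 0.00995, limma), and 46.0% of all genes were lower in brain than in liver. The glutamate transporter is also known from hepatocytes around the central vein. The other probes gave other answers. The second probe was 1.43-fold higher in brain than in liver (0.51, SE 0.16, adjusted p = 0.00662), with overlapping ranges of -0.26 to 0.45 and -0.74 to 0.02. The third lay between -0.92 and 0.12 in brain and between -5.91 and -4.01 in liver, where 2 of 6 arrays measured it. The first probe is assigned to NM_011393 and both others to NM_001077514, and quantile normalization took the difference of the first probe to -0.09 (adjusted p = 0.794), and with the deposited scores the call was also lost (adjusted p = 0.172). Without WT mouse E it was -0.63 (adjusted p = 0.05001), and without the 3 arrays with transcripts of another tissue -0.70 (adjusted p = 0.0124). In heart the first probe had a median of -2.93 (-3.81 to -2.62), and in muscle it was well above background on no array and at least 204-fold lower than in brain.

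Slc1a3 and S100b shared the order brain, muscle, heart and liver. Slc1a3 spanned 3.23 to 3.71 in brain, had medians of -1.74 in muscle and -3.17 in heart, which overlapped, and was measured on 1 of 6 livers, where its median was -5.85. Brain exceeded muscle by 42.3-fold and heart by 86.1-fold. S100b spanned 5.52 to 6.24 in brain, 0.06 to 1.14 in muscle and -1.004 to 0.32 in heart, the last 2 overlapping. Brain exceeded muscle by 34.3-fold and heart by 76.6-fold, and was at least 1779-fold higher than liver, where no array was well above background.

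The myelin genes were measured in every tissue, at levels that depended on the probe. Mag had medians of -2.19 in muscle, -2.69 in liver and -3.71 in heart, against 4.40 to 5.14 in brain, and brain exceeded these tissues by 132-fold, 182-fold and 374-fold. Mog had medians of -0.81 in liver, -1.62 in muscle and -1.87 in heart. Brain exceeded liver by 3.56-fold, muscle by 6.19-fold and heart by 6.69-fold for Mog, with brains from 0.55 to 1.63 and livers from -1.38 to -0.47.

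Mobp showed how far the probe set the answer. By its first probe it was 7.57-fold higher in brain than in liver, where it lay between -1.11 and -0.25 and was measured on 6 of 6 arrays. By the second probe brain was at least 753-fold higher than liver, at least 957-fold higher than heart and at least 502-fold higher than muscle, with no array of these tissues well above background. The third probe, to the same transcript as the first, was likewise below background on all 18 arrays outside brain, and its brain levels were at least 21.3-fold above liver.

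The answer for Mbp also depended on the probe. Its first probe, to NM_001025245, had medians of -0.08 in heart, -0.32 in muscle and -1.14 in liver, all overlapping with their neighbours, and was measured on all 24 arrays. Brain exceeded heart by 7.10-fold, muscle by 9.93-fold and liver by 17.5-fold. By the second probe, to NM_010777, no liver was well above background and brain was at least 323-fold higher. In heart 3 arrays measured it. In muscle 4 arrays did, between -3.71 and -2.89, and its value on the muscle array of F was missing and left out of the fit. The third probe, to NM_010777 as well, spanned -3.64 to -1.97 in brain.

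**Figure D5:**
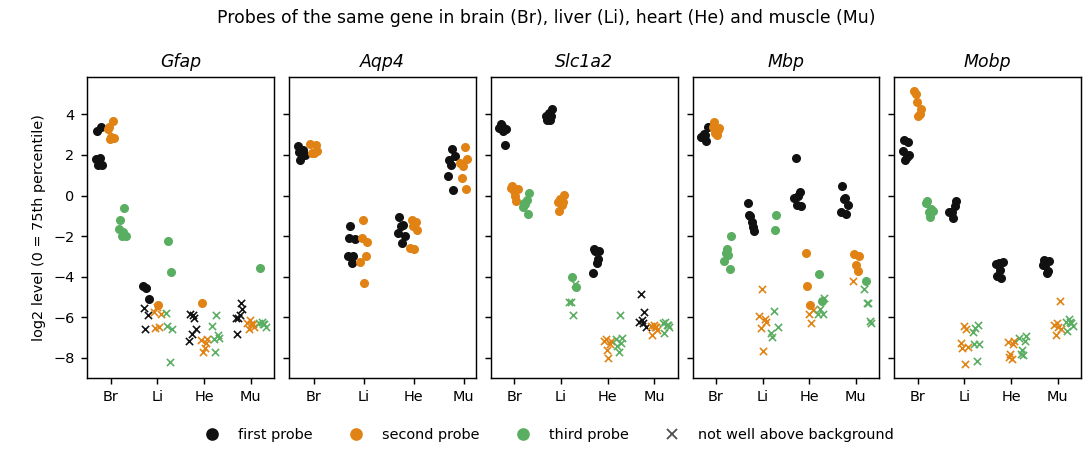
Levels of all probes of the 5 genes with more than 1 probe (y axis, log2 of the signal over the array's 75th percentile) in brain, liver, heart and muscle (x axis). Each point is 1 array of either genotype, colours are probes and crosses mark arrays where the probe was not well above background. The first probes of Mobp and Mbp stay measured on all arrays, the second Mobp probe is below background on all arrays outside brain and the second Mbp probe on all livers, the Slc1a2 probes differ in their order of brain and liver, and the Aqp4 probes run together.

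Outside the brain, no member was called between genotypes. In liver 6 of 9 members were tested, and 0 of 14092 genes (0%) had an adjusted p under 0.05, but 1667, or 11.8%, an unadjusted p under 0.05. One of the 6 members was among these. Mbp was -0.38, -0.94 and -0.996 in KI livers and -1.28, -1.57 and -1.74 in WT livers. All KI livers lay above the WT livers, and 19.7% of all genes tested had groups that did not overlap in liver. The difference was 0.76 (SE 0.21, unadjusted p = 0.00972, adjusted p = 0.378, limma), a fold of 1.69, and no other Mbp probe was measured on more than 2 livers. Without the liver of C, which carried skeletal muscle transcripts, the difference was 0.87 (adjusted p = 0.514).

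In heart 8 of 9 members were tested, all had a difference above 0 on the side of KI, and the median was 0.33 against -0.05 over all genes. None was called (0% of 14931 genes), none had an unadjusted p under 0.05, as 1.64% of all genes had, and none separated the genotypes, as 5.03% did. The differences ran from 0.00 for Slc1a2 to 0.52 for Mbp (SE 0.58), where KI mouse B was at 1.83 and the other 5 hearts between -0.49 and 0.17. Without that heart the Mbp difference was -0.20, that of Slc1a2 -0.22, and the median of the 8 members 0.18, with 6 of 8 above 0. The same heart had the highest mean of the 10 microglia genes, 1.69 against at most 1.2003 in the others, and of the 10 heart muscle genes, 7.77 against 5.76 to 7.31, and their part in the member values was not tested. Slc1a2, Mog and Mobp also fell below 0 under other settings.

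In muscle 7 of 9 members were tested and none was called (0% of 13516 genes). None had an unadjusted p under 0.05, against 0.866% of all genes, and none separated the genotypes, against 3.61%. The differences ran from -0.45 for Mag (SE 0.29) to 0.47 for Slc1a3 (SE 0.34). The genotype effect differed between tissues for no member in limma's F-test of the interaction (0 of 17177 genes, or 0%, were called, and 330 had an unadjusted p below 0.05). For the members the unadjusted p lay between 0.197 for Mag and 0.972 for Mog.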

How the data were processed

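Expression was measured in 4 tissues of 6 mice on 24 arrays. Cy3-labelled RNA was hybridised per the labels, 1 sample to an array, and the deposited intensity files came from Feature Extraction 12.0.3.1 per the file headers. The processed intensity had been corrected by the authors' software for background and was not normalized between arrays. The authors also deposited a score table, which matched z-scores of the log signal within each array (largest difference 0.005) and served as an alternative. Control and outlier spots were left out, spots of a probe averaged, and log2 taken minus the array's 75th percentile (a signal of 312 to 2510). The probes well above background made up 50.6% to 69.4% of an array, none was saturated, and the number of arrays limits the precision.

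Of 55681 probes, 28331 were named through RefSeq accessions and the GRCm38.p6 gene table. Genes entered a test if well above background on all 3 arrays of a genotype. limma 3.58.1 in R 4.3.3 (lmFit, eBayes, two-sided, Benjamini-Hochberg over all genes, threshold 0.05) was run per tissue and on all 24 arrays for tissues and interaction, and was tested on simulated data. The intervals are limma's 95% intervals. Correlations used exact permutations in Python 3.11.15. The mice pair the tissues, since each mouse gave all 4. Deviations of the same mouse from its group means hardly went together (mean r of 0.0142 over 17177 genes, against -0.0065 between mice). Taking deviations from group means largely sets the second value, so it is no independent benchmark. The alternatives were quantile normalization, normexp with an offset of 50 on the median spot and background signals, the scores, no filter, all arrays in 1 fit, the mouse or the slide as a block, WT arrays only, other probes and leaving out each mouse. Leaving out 3 arrays together was added after seeing the data. The genes, lists and rules were chosen with earlier results of these data known. The rule named the 9 members, Terf2ip, the gene of smallest p in each direction in each of 16 lists, and the 3 most alike genes. The lists not described in the text had 0 calls in brain. Some genes of the lists are not reported here by name.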

Additional observations from a re-analysis of the deposited data

How the results depend on the processing

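The number of members called between genotypes was 0 in brain, liver, heart and muscle under every setting run, as were the members called in the interaction and the calls of the 36 correlations. The interaction called 1 gene in all, no member, with quantile normalization, without KI mouse B and without WT mouse D. Against other tissues, 8 to 9 members were called in liver and muscle and 9 in heart. The mouse as a replicate block left these counts at 9, 9 and 8 for liver, heart and muscle and changed no call, and the slide as a block left 0. Of 768 alternative values for single members, 710 kept their direction and side of the threshold, 3 lost the call, 5 gained it and 50 changed sign, of which 48 were genotype differences that passed no threshold. The remaining sign changes were those of Slc1a2 between brain and liver with its other probes (0.51 and 4.49, the latter with 2 of 6 livers measured). In brain, the sign turned for Gfap (0.0302), Aqp4 (-0.018), Mbp (0.18) and Slc1a2 (-0.10) with another probe, and for Slc1a3 with quantile normalization (0.016) and the scores (0.017). In heart it turned for Slc1a2 with the same settings (-0.011 and -0.0033), for Mog with quantile normalization (-0.00996) and for Mobp with the normexp background (-0.038). Leaving out each mouse gave ranges in brain of -0.61 to 0.47 for Gfap, -0.14 to 0.20 for Aqp4, 0.20 to 0.61 for Slc1a2, -0.14 to 0.0797 for Slc1a3, -0.048 to 0.31 for S100b, -0.26 to 0.088 for Mbp, -0.26 to 0.27 for Mog, -0.13 to 0.24 for Mag and -0.21 to 0.27 for Mobp. They were -0.18 to 0.082 for Slc1a2, -0.37 to 0.086 for Mog and -0.42 to 0.016 for Mobp in liver, -0.22 to 0.38 for Slc1a2, -0.20 to 0.95 for Mbp, -0.28 to 0.16 for Mog and -0.086 to 0.31 for Mobp in heart, and -0.69 to 0.32 for Aqp4 and -0.44 to 0.10 for S100b in muscle. Quantile normalization moved the median difference of all genes between brain and liver from -0.20 to 0.06, from -0.17 to 0.01 between brain and heart and from -0.27 to 0.05 between brain and muscle, and the normexp background moved it to -0.35, -0.26 and -0.52. The tissue differences of Slc1a2 and Aqp4 are read relative to these shifts. The causes were not tested. With 3 arrays per group and many probes near background outside brain, small differences could not be detected.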
